A study of Mus musculus with 8 samples.

Results

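Fibroblast growth factor (FGF) signaling was examined through 10 genes: the ligands Fgf1, Fgf2, Fgf7 and Fgf10, the receptors Fgfr1, Fgfr2, Fgfr3 and Fgfr4, and the feedback inhibitors Spry1 and Spry2. They were listed by name, and a probe set was taken where its only annotated gene was one of them. Each gene had 1 such probe set, so that 10 of 19937 named genes, and 10 of the 34760 probe sets of the Affymetrix Mouse Gene 1.0 ST array, are described here. Gene expression was measured in unsorted total mammary cell suspensions from the 4th mammary glands of FVB/NHanHsd mice, on 4 arrays of parous mice and 4 of virgin control mice of the same age. A pool of 5 mice gave the RNA of each array. Parous mice were mated at 42 days of age and had 21 days of lactation and, per the labels, 28 days of involution (the methods give a longer period after weaning), whereas virgin mice had no pregnancy. No transgene or drug treatment is named, and the sources used here do not give the estrous stage of each pool.

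FGFs are secreted proteins that bind receptor tyrosine kinases together with heparan sulfate chains on the cell surface, and the activated receptor signals through RAS and ERK. In the mammary gland, Fgf7 and Fgf10 are made by stromal cells and act on the epithelium through an epithelial splice form of Fgfr2, a receptor known for its part in the growth and branching of ducts. Spry1 and Spry2 are induced by receptor signaling and dampen it.

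Per the methods, lymph nodes, adipocytes and red blood cells were removed from the suspensions and fibroblasts were reduced by attachment to plastic. Although the labels call the cells epithelial, all 15 fibroblast markers, all 10 endothelial markers and all 8 leukocyte markers examined had a mean above the median of all probe sets, as had all 9 luminal and all 10 basal markers. Of the 7 adipocyte markers, 4 lay below that median, among them Adipoq and Lep. In such a mixture, fewer cells of a type and less RNA per cell cannot be told apart. Virgin replicates 2 and 4 stood apart from the other 6 arrays by their proliferation markers, whose mean centred value was 1.28 and 1.83 on the log2 scale, against -0.92 to -0.22 on the others.

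The promoters of Fgf2, Fgf7 and Fgfr2 are shown because the parous and virgin arrays did not overlap for these 3 genes. Each sequence runs from 250 bases before to 50 bases after the annotated start in the RefSeq table for GRCm38.p6, and capitals mark a match to one of the motifs searched. The sequence of Fgf2 is chr3:37348403-37348702 on the plus strand, that of Fgf7 is chr2:126034408-126034707 on the plus strand, and that of Fgfr2 is chr7:130266759-130267058 on the minus strand.
Fgf2 promoter: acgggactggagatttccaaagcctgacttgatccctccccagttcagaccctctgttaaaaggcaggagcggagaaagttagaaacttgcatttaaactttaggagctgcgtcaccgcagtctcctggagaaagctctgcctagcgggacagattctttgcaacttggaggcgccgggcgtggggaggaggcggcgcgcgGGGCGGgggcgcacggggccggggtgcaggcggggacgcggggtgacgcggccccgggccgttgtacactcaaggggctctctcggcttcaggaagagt
Fgf7 promoter: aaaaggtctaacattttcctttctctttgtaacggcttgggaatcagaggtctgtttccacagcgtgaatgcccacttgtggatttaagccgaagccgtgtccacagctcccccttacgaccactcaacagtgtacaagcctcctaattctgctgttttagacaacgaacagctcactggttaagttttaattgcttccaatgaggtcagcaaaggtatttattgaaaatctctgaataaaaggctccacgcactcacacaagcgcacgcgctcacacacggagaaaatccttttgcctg
Fgfr2 promoter: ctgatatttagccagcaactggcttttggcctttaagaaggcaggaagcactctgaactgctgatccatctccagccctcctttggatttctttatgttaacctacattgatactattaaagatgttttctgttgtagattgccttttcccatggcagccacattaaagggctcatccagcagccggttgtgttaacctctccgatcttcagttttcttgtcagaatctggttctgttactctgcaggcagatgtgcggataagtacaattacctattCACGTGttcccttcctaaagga
The Fgf2 promoter had a GC content of 62.7% and 24 CpG dinucleotides, against medians of 52.7% and 7 over the 32851 promoters of the table. Its capitals are a GC box, GGGCGG, that begins 49 bases before the start, a motif found in 35.7% of all promoters. The Fgf7 promoter had a GC content of 45.7% and 11 CpG, and held no match. The Fgfr2 promoter had a GC content of 43.7% and 4 CpG, and its capitals are an E-box, CACGTG, that begins 28 bases after the start and occurred in 7.15% of all promoters. Also searched, on both strands, were the TATA box TATAAA (13.6% of all promoters), the AP-1 element TGANTCA (7.81%) and the forkhead core TGTTTAC (3.65%), none of which occurred in these 3 sequences. Promoters were listed for 8 of the 10 genes.

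None of the 10 genes passed the criteria of the study, a linear fold change over 1.5 with an adjusted p under 0.05 by limma, which 0.397% of all probe sets passed (0.239% higher and 0.158% lower). With an unadjusted p under 0.05, limma gave 3 of the 10 genes, Fgf2 and Fgf7 higher and Fgfr2 lower in parous mice, where 11.4% of all probe sets had such a p (5.26% higher and 6.14% lower). For the same 3 genes the 4 parous arrays did not overlap the 4 virgin arrays, which held for 7.6% of all probe sets (3.54% with parous higher and 4.06% with parous lower). With the unadjusted p in the criteria, Fgf7 and Fgfr2 passed, as did 2.96% of all probe sets. Likewise, the methods' t-test gave 0 of the 10 genes after Benjamini-Hochberg adjustment. Without virgin replicates 2 and 4, none passed the criteria, 4 of the 10 genes had an unadjusted p under 0.05 (7.55% of all probe sets), and 5 of the 10 did not overlap (16.4% of all probe sets), with Fgf1 and Fgfr1 lower in parous mice added to the 3.

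**Figure D1:**
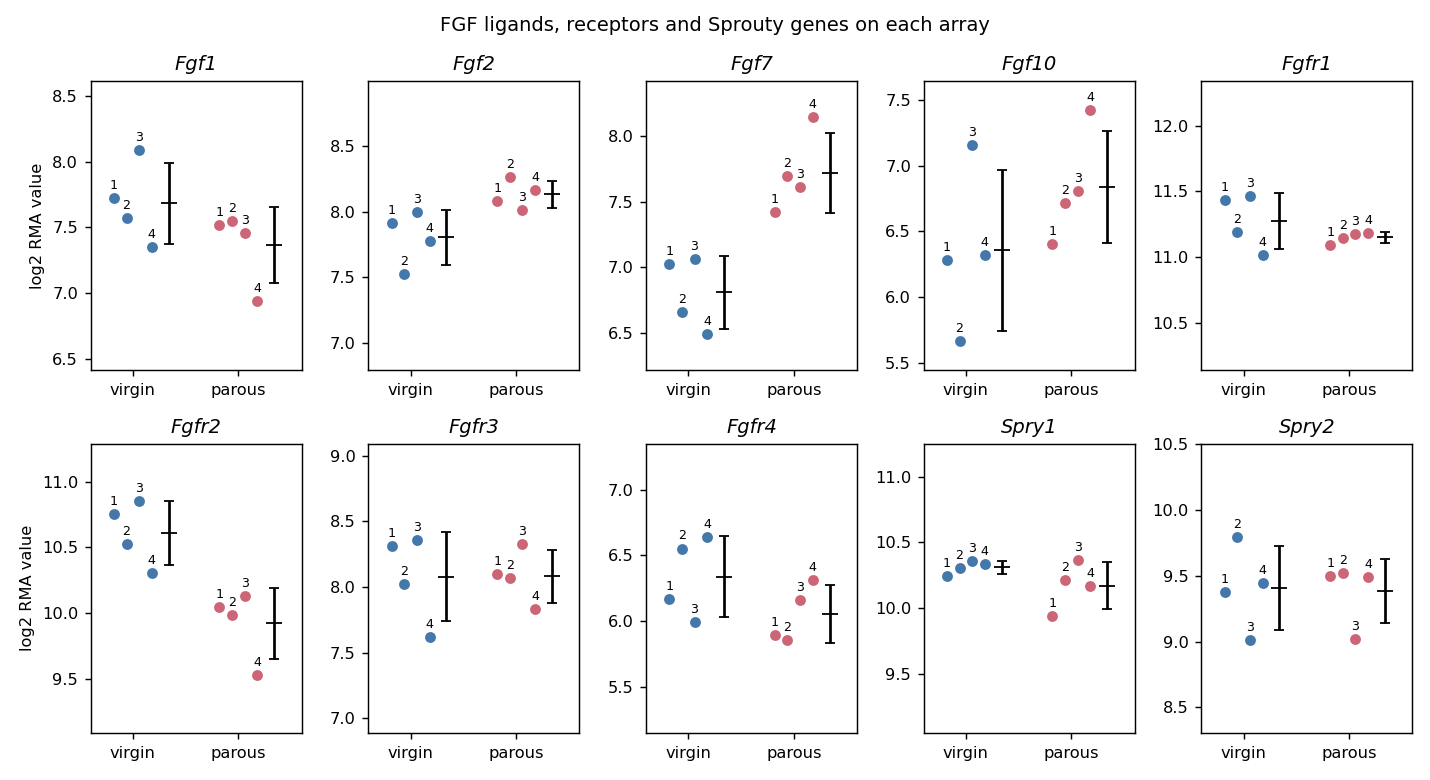
The log2 RMA value (vertical axis) of each of the 10 genes on the 4 virgin (blue) and 4 parous (red) arrays, with the replicate number above each point and the mean ± SD beside each group. All panels span the same log2 range. For Fgf2 and Fgf7 every parous array lay above every virgin array and for Fgfr2 every parous array lay below, while the groups overlapped for the other 7 genes.

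Among the ligands, Fgf7 (keratinocyte growth factor, probe set 10475643) had the largest difference. Its log2 values were 7.42, 7.70, 7.61 and 8.14 on the parous arrays and 7.02, 6.66, 7.06 and 6.49 on the virgin arrays. Every parous array was above every virgin array, with parous replicate 4 the highest of all and virgin replicate 4 the lowest. The mean was 7.72 ± 0.31 (SD, n = 4) in parous and 6.81 ± 0.28 (SD, n = 4) in virgin mice, a log2 fold change of 0.91 (SE 0.18, 95% CI 0.49 to 1.33) and a linear fold change of 1.88. Its unadjusted p by limma was 0.000941 and its adjusted p 0.106, and an exact permutation test gave p = 0.0286, the smallest that 4 arrays against 4 allow. Without virgin replicates 2 and 4, its log2 fold change was 0.68 (limma, adjusted p = 0.412).

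Fgf2 (basic FGF, probe set 10491699), which acts on several receptors, differed less. Its log2 values were 8.08, 8.26, 8.02 and 8.16 on the parous arrays and 7.92, 7.52, 8.00 and 7.78 on the virgin arrays. The groups did not overlap, but parous replicate 3 lay only just above virgin replicate 3. Its log2 fold change was 0.33 (SE 0.11, 95% CI 0.067 to 0.59, limma adjusted p = 0.327), a linear fold change of 1.25, and 0.17 (adjusted p = 0.806) without virgin replicates 2 and 4.

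Fgf10 (probe set 10407350), the other stromal ligand of the epithelial Fgfr2 form, varied widely within the groups. Its log2 values were 6.40, 6.72, 6.81 and 7.42 on the parous arrays and 6.28, 5.67, 7.16 and 6.32 on the virgin arrays. The groups overlapped, since virgin replicate 3 was above 3 of the 4 parous arrays, and virgin replicate 2 was the lowest array. The means were 6.84 ± 0.43 and 6.36 ± 0.61 (SD, n = 4 each). Its log2 fold change of 0.48 had a 95% CI of -0.25 to 1.21 and an adjusted p of 0.636 by limma, and it was 0.12 without virgin replicates 2 and 4. Leaving out 1 array moved it from 0.25, without virgin replicate 2, to 0.75, without virgin replicate 3.

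Fgf1 (acidic FGF, probe set 10458560), which can bind all of the FGF receptors, was the ligand with a negative fold change. Its log2 values were 7.52, 7.55, 7.46 and 6.94 on the parous arrays and 7.73, 7.57, 8.09 and 7.35 on the virgin arrays. Only virgin replicate 4 overlapped the parous range, and parous replicate 4 was the lowest of all. Its log2 fold change was -0.32 (SE 0.19, 95% CI -0.74 to 0.11, limma adjusted p = 0.592), and -0.54 (adjusted p = 0.591) without virgin replicates 2 and 4, when the groups no longer overlapped. It was -0.17 without parous replicate 4 and -0.18 without virgin replicate 3. Over the 4 ligands the median log2 fold change was 0.40, against 0.0016 over all probe sets, and 0.15 without virgin replicates 2 and 4.

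Of the receptors, Fgfr2 (probe set 10568436) differed most. Its log2 values were 10.05, 9.98, 10.13 and 9.53 on the parous arrays and 10.75, 10.53, 10.85 and 10.31 on the virgin arrays. Every parous array was below every virgin array, and replicate 4 was the lowest of its group in both. The mean was 9.92 ± 0.27 (SD, n = 4) in parous and 10.61 ± 0.24 (SD, n = 4) in virgin mice, a log2 fold change of -0.69 (SE 0.16, 95% CI -1.06 to -0.31) and a linear fold change of 1.61 downward. Its unadjusted p by limma was 0.00259 and its adjusted p 0.160, and the exact permutation test gave p = 0.0286. Leaving out virgin replicates 2 and 4 gave a log2 fold change of -0.88 (limma adjusted p = 0.187). A single probe set per receptor does not separate the epithelial and mesenchymal splice forms.

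Fgfr1 (probe set 10570982), a receptor of both stromal and epithelial cells, had log2 values of 11.09, 11.15, 11.18 and 11.18 on the parous arrays and 11.43, 11.19, 11.47 and 11.01 on the virgin arrays. The parous arrays lay close together inside the range of the virgin arrays. Between the groups the log2 fold change was -0.13 (SE 0.11, 95% CI -0.38 to 0.12, limma adjusted p = 0.725). Without virgin replicates 2 and 4, both of which lay below the other virgin arrays, it was -0.30 (adjusted p = 0.344) and the groups did not overlap.

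Fgfr3 (probe set 10521111) had log2 values of 8.10, 8.07, 8.33 and 7.83 on the parous arrays and 8.31, 8.02, 8.36 and 7.62 on the virgin arrays. The parous arrays lay within the range of the virgin arrays. The means were both 8.08, with SDs of 0.20 and 0.34 (n = 4 each), and the 95% CI of the log2 fold change ran from -0.40 to 0.40, so that a change of either sign within that interval could not be distinguished from 0.

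Fgfr4 (probe set 10405380) was the only one of the 10 genes with a mean below the median of all probe sets. It had log2 values of 5.89, 5.86, 6.16 and 6.31 on the parous arrays and 6.17, 6.55, 5.99 and 6.64 on the virgin arrays. The groups overlapped, and virgin replicates 2 and 4 were the highest arrays. The log2 fold change was -0.28 (SE 0.17, 95% CI -0.67 to 0.11, limma adjusted p = 0.595) and -0.02 without those 2 arrays. Over the 4 receptors the median log2 fold change was -0.20.

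The feedback inhibitors differed little between the groups. Spry1 (probe set 10491721) had log2 values of 9.94, 10.21, 10.36 and 10.17 on the parous arrays and 10.24, 10.30, 10.36 and 10.34 on the virgin arrays. Its groups overlapped, with parous replicate 1 the lowest array, and its log2 fold change was -0.14 (SE 0.097, 95% CI -0.36 to 0.083, limma adjusted p = 0.656). Spry2 (probe set 10422227) had log2 values of 9.50, 9.52, 9.02 and 9.49 on the parous arrays and 9.38, 9.80, 9.01 and 9.44 on the virgin arrays. Replicate 3 was the lowest in both groups, and the parous arrays lay within the virgin range. Its log2 fold change was -0.03 (SE 0.18, 95% CI -0.43 to 0.38, limma adjusted p = 0.979).

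**Figure D2:**
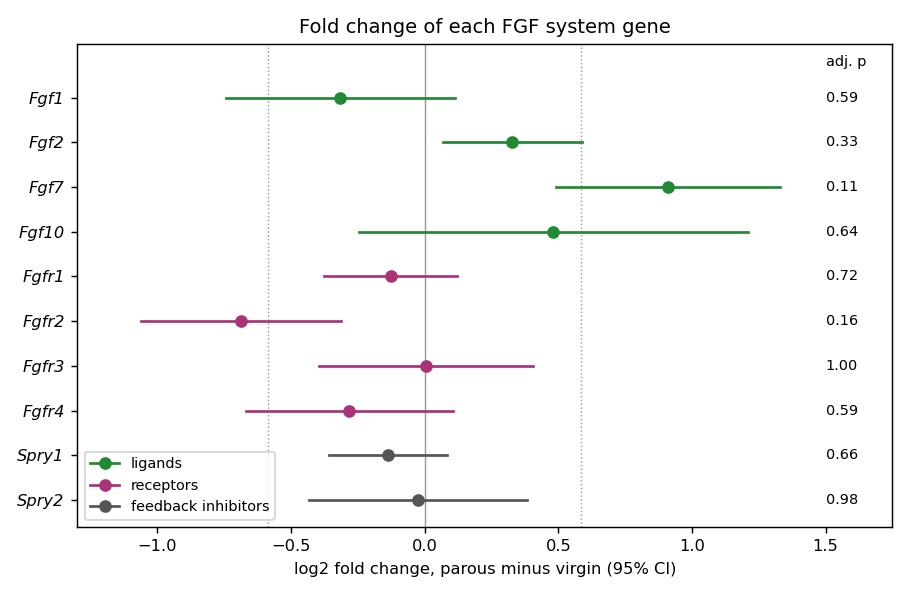
The log2 fold change of each gene, parous minus virgin (horizontal axis), with its 95% confidence interval from limma as a line and its adjusted p at the right. Dotted lines mark a linear fold change of 1.5. The intervals of Fgf2 and Fgf7 lie above 0 and that of Fgfr2 lies below 0, while those of the other 7 genes include 0.

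As Fgf7 and Fgf10 are made by stromal cells, the ligands were set beside the 15 fibroblast markers. None of these markers passed the criteria, and by limma 7 had a positive and 1 a negative difference with an unadjusted p under 0.05, while their median log2 fold change was 0.31 (0.18 without virgin replicates 2 and 4). After each was centred on its own 8-array mean, the markers averaged -0.11, 0.10, 0.21 and 0.49 on the parous arrays and -0.25, -0.47, -0.02 and 0.06 on the virgin arrays. The sum of their log2 values ran from 149 to 158 on the parous and from 144 to 152 on the virgin arrays. The markers did not move together, since Fbln1 had a log2 fold change of 1.01 (limma adjusted p = 0.0915), Dpt of 0.93 (0.198) and Pdgfra of 0.92 (0.254), while Col1a1 had -0.21 (0.689), Col3a1 -0.24 (0.784) and Postn -0.34 (0.307); these 6 were named after their values were seen.

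Fgf7 minus the mean of the 15 fibroblast markers was 0.27, 0.34, 0.14 and 0.39 on the parous arrays and 0.01, -0.13, -0.18 and -0.83 on the virgin arrays, on the centred log2 scale. Every parous array remained above every virgin array, with a difference of 0.57 between the means (exact permutation p = 0.0286, 0.171 after Benjamini-Hochberg adjustment over the 12 comparisons of a ligand or receptor with a marker list). The difference was 0.37 without virgin replicates 2 and 4. For Fgf2 the difference relative to the 15 markers was -0.01 (exact permutation p = 0.914, adjusted 0.914), for Fgf10 it was 0.14 (exact permutation p = 0.571, adjusted 0.762), and for Fgf1 it was -0.65 (exact permutation p = 0.0857, adjusted 0.343). Pdgfra, Dpt, Fbln1 and Fap, taken after the data were seen because they were among the markers with the highest fold changes, lower any difference set against them by that choice. Relative to these 4 the difference was 0.0063 for Fgf7, -0.42 for Fgf10 and -0.58 for Fgf2, given as a description. The part of fibroblast number in the ligand values was not tested. None of the markers of the other cell types that suspensions can hold passed the criteria. Their median log2 fold changes were 0.20 for the 10 endothelial, 0.36 for the 6 pericyte, 0.08 for the 7 adipocyte and 0.17 for the 8 leukocyte markers, and -1.33 for the 11 measured proliferation markers. These medians without virgin replicates 2 and 4 were -0.056, 0.051, -0.022, -0.34 and -0.43, so that those of the endothelial, adipocyte and leukocyte markers turned sign.

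The receptors were set beside the markers of the epithelial populations in the same way. The 9 luminal markers had a median log2 fold change of -0.22 (unadjusted p under 0.05 for 1 higher and 5 lower), with means of -0.25 to -0.03 on the parous and -0.04 to 0.19 on the virgin arrays and sums of log2 values of 104 to 106 and 106 to 108. Fgfr2 minus their mean was -0.18, -0.25, -0.03 and -0.49 on the parous arrays and 0.30, 0.10, 0.47 and 0.08 on the virgin arrays. The groups did not overlap, and the difference was -0.47 (exact permutation p = 0.0286, adjusted 0.171), or -0.62 without virgin replicates 2 and 4. The 10 basal markers had a median log2 fold change of -0.26, with 7 below and 3 above 0. Their means were -0.26 to -0.10 on the parous and 0.01 to 0.28 on the virgin arrays, with sums of log2 values of 107 to 109 and 110 to 113. These markers did not move together. Krt17 passed the criteria as lower (log2 fold change -1.18, limma adjusted p = 0.0167), and Krt14 had -0.75 (0.109), Trp63 -0.60 (0.372) and Krt5 -0.52 (0.306). In the other direction, Myh11 had 0.24 (0.603), Mylk 0.20 (0.571) and Vim 0.05 (0.856). Krt17 aside, these were named after their values were seen. Relative to the mean of the 10 basal markers the difference of Fgfr2 was -0.37 and the groups overlapped (exact permutation p = 0.114, adjusted 0.343), and it was -0.57 without virgin replicates 2 and 4. This difference holds for the mean of a list that went both ways. The log2 fold change of Fgfr2 itself, -0.69, lay between those of Trp63 and Krt14.

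The 5 measured markers of hormone-sensing luminal cells, the luminal cells that carry estrogen and progesterone receptors, had a median log2 fold change of -0.91 (-1.01 without virgin replicates 2 and 4). Among them Wnt4 passed the criteria as lower (log2 fold change -0.82, limma adjusted p = 0.00696). Their mean centred value was -0.31, -0.44, -0.29 and -0.75 on the parous arrays and 0.51, 0.50, 0.74 and 0.05 on the virgin arrays, and their summed log2 values ran from 41.7 to 44.0 and from 45.7 to 49.1. In a comparison added after the data were seen, Fgfr2 minus this mean was 0.10, 0.16, 0.15 and 0.01 on the parous arrays and -0.02, -0.24, -0.15 and -0.01 on the virgin arrays. The difference between the means was 0.21, in place of -0.47 relative to the 9 luminal markers, and the groups did not overlap. The 5 markers averaged -0.45 on the parous and 0.45 on the virgin arrays. Any gene that fell by less takes a positive difference by that choice, so the value is given as a description. Relative to the same 5 markers the difference was 0.77 for Fgfr1, 0.90 for Fgfr3 and 0.62 for Fgfr4. The positive sign was therefore not particular to Fgfr2. The 7 luminal progenitor markers, also added after the data were seen, had a median log2 fold change of 0.31. Their mean centred value was 0.052 in parous and -0.052 in virgin mice. They went both ways, from -0.82 for Lypd3 (limma adjusted p = 0.13) to 0.64 for Hey1 (0.398). Relative to their mean the difference was -0.79 for Fgfr2, -0.23 for Fgfr1, -0.10 for Fgfr3 and -0.39 for Fgfr4. The negative sign was thus not particular to Fgfr2 either. The part of these cell populations in the Fgfr2 values was not tested.

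For the other receptors the groups overlapped relative to the 9 luminal markers. The difference was 0.09 for Fgfr1 (exact permutation p = 0.4, adjusted 0.6), 0.22 for Fgfr3 (exact permutation p = 0.257, adjusted 0.441) and -0.07 for Fgfr4 (exact permutation p = 0.743, adjusted 0.891). Relative to the basal markers it was 0.19 for Fgfr1, 0.32 for Fgfr3 and 0.03 for Fgfr4 (exact permutation p = 0.2, 0.171 and 0.914, adjusted 0.4, 0.4 and 0.914). When virgin replicates 2 and 4 were left out, the differences relative to the luminal markers were -0.042 for Fgfr1, 0.0063 for Fgfr3 and 0.24 for Fgfr4, and relative to the basal markers 0.0054, 0.054 and 0.28. Without virgin replicate 4 alone, those relative to the basal markers were 0.084 for Fgfr1 and 0.15 for Fgfr3.

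**Figure D3:**
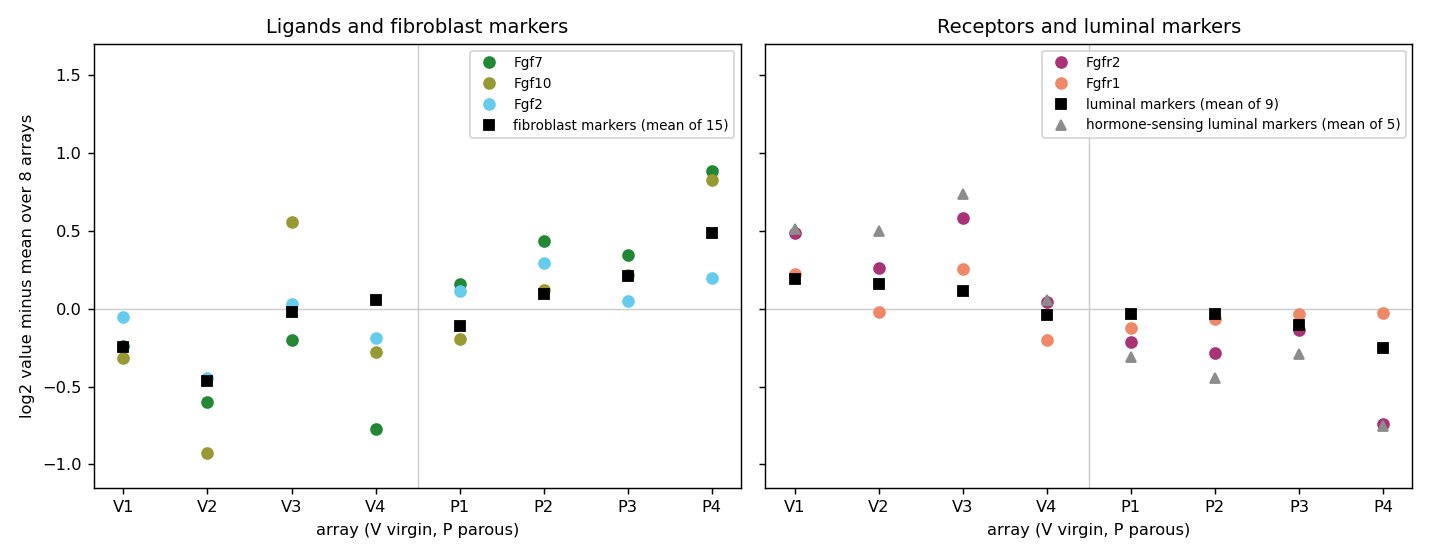
Log2 values centred on the mean over the 8 arrays (vertical axis) on virgin (V) and parous (P) arrays 1 to 4. Circles are single genes, squares are the mean of the 15 fibroblast (left) or 9 luminal (right) markers, and triangles are the mean of the 5 hormone-sensing luminal markers. On the left, Fgf7 lay above the fibroblast mean on all 4 parous arrays. On the right, Fgfr2 lay near the hormone-sensing markers on the 8 arrays, within 0.24 of their mean.

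The genes whose pattern over the 8 arrays was most like that of the 3 genes with the largest SD, namely Fgf7, Fgf10 and Fgfr2, were sought among 12049 genes. Each of these had a single-gene probe set with a mean above the median of all probe sets. The arrays fall into 2 groups, so that each Pearson r is followed by that after centring each group on its own mean. For Fgf7 the most alike genes were Tbx15 (r = 0.987, 0.961 within groups), Podn (0.986, 0.945) and Cxcl2 (0.983, 0.926). For Fgf10 they were Tnfsf13b (0.966, 0.960), Hspa4 (0.941, 0.931) and Cpz (0.938, 0.921). For Fgfr2 they were Ptn (0.993, 0.979), Tlcd4 (0.990, 0.991) and Foxa1 (0.986, 0.951), a transcription factor of hormone-sensing luminal cells and one of the 5 markers above. These correlations share the same 8 arrays and are given as a description.

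Around the 10 genes, 77 of 84 other pathway genes in 7 lists were measured. None passed the criteria by limma or by the methods' t-test. Unadjusted limma p-values under 0.05 were found for 7 higher and 8 lower genes (19.5%, against 11.4% of all probe sets), and the groups did not overlap for 6 higher and 6 lower genes (15.6%, against 7.6%). Without virgin replicates 2 and 4, such p-values were found for 4 higher and 5 lower genes (11.7%, against 7.55%). The groups then did not overlap for 10 higher and 10 lower genes (26%, against 16.4%). With all 8 arrays, the median log2 fold change of the 77 genes was 0.0051.

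Among 14 other secreted ligands, 9 of which had a mean below the median of all probe sets, the median log2 fold change was 0.02. Fgf18, a ligand that acts mainly on mesenchymal receptor forms, had log2 values of 7.65, 8.01, 7.55 and 7.55 on the parous and 7.15, 6.95, 7.33 and 7.23 on the virgin arrays. Every parous array was above every virgin array, with a log2 fold change of 0.52 (SE 0.13, limma adjusted p = 0.174). Fgf23, a hormone of phosphate balance, had the next largest at -0.15 (adjusted p = 0.817). Of the 4 intracellular FGF homologous factors, which do not act through the receptors, Fgf14 had a log2 fold change of -0.55 (limma adjusted p = 0.458) and Fgf11 of 0.21 (0.715), and both overlapped. For Fgf14 the value was -0.07 without virgin replicates 2 and 4.

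The 17 co-receptors and ligand carriers had a median log2 fold change of 0.02 and went both ways. Flrt2, a membrane protein with fibronectin and leucine-rich repeats, had log2 values of 8.65, 9.10, 8.98 and 9.48 on the parous and 8.53, 7.95, 8.60 and 7.67 on the virgin arrays. Parous replicate 1 was just above virgin replicate 3, and the log2 fold change was 0.87 (SE 0.25, limma adjusted p = 0.232). Gpc3, a glypican that carries heparan sulfate, had log2 values of 10.19, 10.37, 10.31 and 10.46 on the parous and 9.92, 9.44, 9.90 and 9.46 on the virgin arrays. Its groups did not overlap either, and the log2 fold change was 0.65 (SE 0.14, limma adjusted p = 0.114). Leaving out virgin replicates 2 and 4 gave 0.49 for Flrt2 (adjusted p = 0.687) and 0.42 for Gpc3 (0.279). Other glypicans and Flrt3 differed in sign. Gpc6 had 0.33 (adjusted p = 0.225), but Gpc1 had -0.30 (0.274), Gpc4 -0.33 (0.361) and Flrt3 -0.33 (0.155), each without overlap, and all 4 were named after their values were seen.

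Of 12 genes of heparan sulfate synthesis and editing, with a median log2 fold change of 0.09, limma gave an unadjusted p under 0.05 for 2, Sulf1 and Sulf2, both higher. Sulf1 and Sulf2 are the sulfatases that remove 6-O-sulfate from heparan sulfate, and Hpse is the heparanase that cleaves the chains. Hpse had a log2 fold change of 0.61 (SE 0.30, limma adjusted p = 0.488) and Sulf1 of 0.60 (SE 0.22, adjusted p = 0.343), and for both the groups overlapped. Sulf2, named after its values were seen, had log2 values of 11.16, 11.09, 11.33 and 11.31 on the parous and 10.84, 10.61, 10.87 and 10.42 on the virgin arrays. Its groups did not overlap, with a log2 fold change of 0.54 (SE 0.12, limma adjusted p = 0.130). In the other direction, Hs6st2, which adds the 6-O-sulfate and was likewise named after its values were seen, had -0.56 (SE 0.25, limma adjusted p = 0.451) with overlapping groups, virgin replicates 2 and 4 being its highest arrays. Virgin replicates 1 and 3, at 5.29 and 5.15, lay within its parous range of 5.03 to 5.37. Hs6st2 was dim, with a mean of 5.43. The brighter Hs6st1 (mean 9.98), which also adds the 6-O-sulfate, had 0.15 (limma adjusted p = 0.517) with overlapping groups. Without virgin replicates 2 and 4 the log2 fold change of Hpse was 0.09 and that of Sulf1 was 0.20.

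Within the relay from receptor to ERK, 12 of 18 adaptors and kinases were measured, with a median log2 fold change of -0.06. Nras, one of the RAS proteins, had -0.45 (SE 0.14, limma adjusted p = 0.282) and Ptpn11, the phosphatase SHP2, had -0.17 (SE 0.075, adjusted p = 0.434), both without overlap. The adaptor Frs3, named after its values were seen, had 0.16 (adjusted p = 0.375), also without overlap. The value of Nras was -0.22 without virgin replicates 2 and 4. None of the 9 other feedback inhibitors had an unadjusted p under 0.05, and the largest differences were 0.29 for Spry4 and -0.24 for the ERK phosphatase Dusp4 (limma adjusted p = 0.612 for both). These values were 0.0078 and -0.089 without virgin replicates 2 and 4, and without virgin replicate 2 alone the value of Dusp4 was -0.10.

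Of 9 ERK-responsive transcription factor genes, with a median log2 fold change of 0.11, Etv4 and Etv1 had unadjusted p-values under 0.05. Etv4, an ETS factor known as a target of FGF signaling, had log2 values of 6.45, 6.33, 6.36 and 6.49 on the parous and 6.77, 7.29, 7.07 and 7.71 on the virgin arrays. Every parous array was below every virgin array, with virgin replicates 4 and 2 the highest. The log2 fold change was -0.80 (SE 0.18, limma adjusted p = 0.143), and -0.51 without those 2 arrays. Etv1 had a log2 fold change of -0.40 (SE 0.16, limma adjusted p = 0.404) with overlapping groups, which was -0.24 without virgin replicate 3 and -0.66 without virgin replicates 2 and 4.

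**Figure D4:**
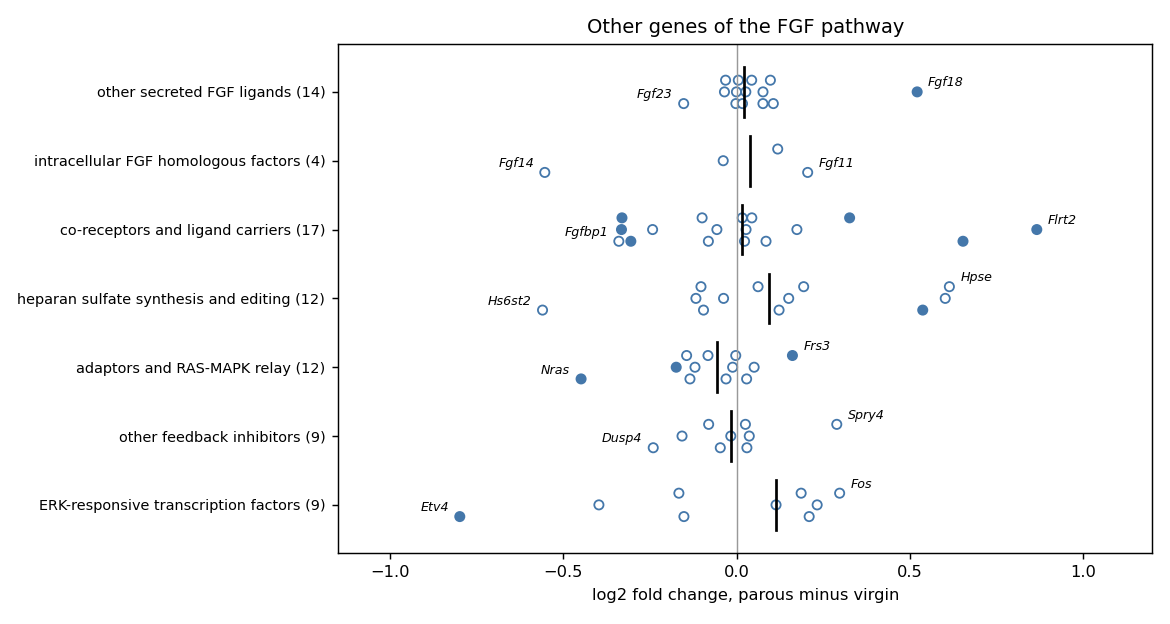
The log2 fold change, parous minus virgin (horizontal axis), of the 77 other pathway genes in 7 lists (number measured in parentheses). Filled circles are genes whose parous and virgin arrays did not overlap, open circles the others, and the bar is the list's median; the lowest and highest gene of each list are named. The medians lie between -0.06 and 0.11, with Flrt2 highest at 0.87 and Etv4 lowest at -0.80.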

How the data were processed

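The authors deposited 1 log2 value per probe set and array, made with rma() of the affy package (no version given), that is, background-corrected, quantile normalized and summarized. There were 34760 values per array, with medians of 6.29 to 6.43, and correlations between arrays of 0.976 to 0.993. Of the probe sets, 21640 named 1 gene. Genomic positions were printed only for promoters, as the sources used here name no genome build for the array. The genes and lists were chosen with earlier results of these data known. Parous and virgin arrays were compared in R 4.3.3 with limma 3.58.1 (lmFit, eBayes, no covariate, 2-sided), and p-values were adjusted by Benjamini-Hochberg across the whole array. To pass, a probe set needed a linear fold change over 1.5, a mean log2 value over 2 and an adjusted p under 0.05. Where a gene had several probe sets, the brightest was used. In each other pathway list, the 2 largest changes were named where none passed. Exact permutation tests were 2-sided. The pools were counted as replicates, so that p-values set the group difference against the variation between pools, and 4 arrays per group limit the precision. The procedure was tested on simulated data. The closing section gives the alternatives: replicate block, arrays left out, normalization, moderation, array weights, the methods' t-test, filters and criteria.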

Additional observations from a re-analysis of the deposited data

Results flagged for a closer look

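In 4 of the 48 groups of 4 arrays examined, over 24 genes, 1 array lay far from the other 3 by Dixon's test, which chance alone gives in about 1 in 20 groups. For Fgf1, parous replicate 4 was at 6.94 on the log2 scale, whereas the other parous arrays were at 7.46 to 7.55. For Spry2, parous replicate 3 was at 9.02, against 9.49 to 9.52 on the others. Sulf1 was at 9.17 on parous replicate 1, against 9.30 to 9.32 on the other parous arrays. Ptpn11 was at 9.89 on parous replicate 3, whereas the other parous arrays were at 9.997 to 10.004.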

How the results depend on the processing

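None of the 10 genes and none of the 77 other pathway genes passed the criteria under any alternative that kept the adjusted p. With an unadjusted p in its place, 2 of the 10 genes (Fgf7 and Fgfr2), 4 of the other pathway genes and 1030 of all probe sets passed. Over all probe sets, 138 passed, and 42 to 179 when 1 array was left out, and the methods' t-test gave 11. The study describes experiments that each held mice of both groups, but the labels do not tie the replicate numbers to them. Arrays with the same number were therefore not treated as paired in the main fit. The correlations of their deviations from the group means were 0.115, 0.183, -0.0567 and 0.307. Of the 8 arrays, 4 correlated best with their own number. Whether arrays with the same number share an experiment is not settled by these values. With the replicate number as a block, 49 probe sets passed, and the adjusted p was 0.241 for Fgf7, 0.0614 for Fgfr2 and 0.364 for Fgf1. The block lowered the SE of Fgfr2 from 0.16 to 0.076, while that of Fgf7 rose from 0.18 to 0.22.

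Over all alternatives the log2 fold change of Fgf7 was 0.68 to 1.01 (adjusted p 0.0557 to 0.412), that of Fgfr2 was -0.88 to -0.56 (0.0614 to 0.369) and that of Fgf2 was 0.17 to 0.39 (0.192 to 0.806). Of the genes followed through the alternatives, Fgfr3, Spry2, Fgf11 and Fgf23 changed sign. Their log2 fold changes in the main fit were 0.0032, -0.025, 0.21 and -0.15, while Fgfr1, with -0.13, kept its sign. Fgfr3 became -0.25 without virgin replicates 2 and 4, -0.013 with arrays centred on their medians (which shifted the median of all probe sets by -0.016) and -0.056 with array weights, and ranged from -0.15 to 0.096 with 1 array left out. Spry2 became 0.19 without virgin replicates 2 and 4 and 4.3e-05 after a repeated quantile normalization, and ranged from -0.16 to 0.10. Fgf11 became -0.011 without virgin replicates 2 and 4, and Fgf23 ranged from -0.26 to 0.026. The causes were not tested.

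Relative to the marker lists, leaving out 1 array gave 0.39 to 0.67 for Fgf7 and -0.097 to 0.083 for Fgf2 (fibroblast), -0.54 to -0.39 for Fgfr2 and -0.20 to 0.080 for Fgfr4 (luminal), and -0.12 to 0.12 for Fgfr4 (basal). With 4 arrays against 3, the smallest exact p is 0.057, so that the unadjusted p of 0.0286 for Fgf7 and Fgfr2 could not stay under 0.05; after adjustment neither passed with all arrays. Without virgin replicates 2 and 4, an alternative chosen after seeing the data for these comparisons, the values were 0.37 for Fgf7, -0.62 for Fgfr2, -0.19 for Fgf10, -0.042 for Fgfr1 and 0.24 for Fgfr4 (luminal for the receptors), with a smallest possible p of 0.13.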
